A study of Manihot esculenta with 44 samples.

Results

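MANES_13G000800 and MANES_12G001600 are the 2 cassava genes whose closest Arabidopsis gene in the authors' tables is FLOWERING LOCUS T (FT). They were chosen by gene ID from 34120 gene IDs, each is represented by 1 transcript row, and no gene had the FT paralogue TSF as its closest match. In Arabidopsis, FT is made in the companion cells of the leaf phloem in response to day length and other cues. Its protein, called florigen, moves through the phloem to the shoot tip, where it binds 14-3-3 proteins and the transcription factor FD and switches on genes of flowering. FT belongs to the phosphatidylethanolamine-binding protein family, which also holds TFL1 and its relatives, known in Arabidopsis as antagonists of FT. Whether either cassava gene has the Arabidopsis role was not measured here.

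Leaf RNA of cassava (Manihot esculenta), variety KU50, was sequenced in pairs from plants grown from stem cuttings in Vietnam in 2019. The series contrasts Bac Kan, a mountainous area where the plants flowered, with Hanoi, a general field where they did not. Bac Kan leaves were sampled on 31 May, 29 June, 26 July, 15 August, 11 September, 5 October and 30 October, and Hanoi leaves on 24 May, 13 July, 7 August and 10 October. Each of the 11 combinations of site and date had 4 libraries, so that 28 came from Bac Kan and 16 from Hanoi. All groups share the variety and, per the labels, a similar supply of nitrogen, phosphorus and potassium. Each site is 1 field, so site and every other difference between the fields cannot be told apart. Nothing in the labels ties the libraries to separate plants or gives the hour of sampling, so p-values measure the spread between these libraries, which may be technical. Site and date follow the sample titles, since the labels' characteristics give another date for 40 samples and another site for 16.

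Expression is given as a level, the deposited FPKM rescaled so that each library sums to 1000000. The labelled tissue was checked with 4 mesophyll homologues, which summed to levels of 1953 to 17030 and were all above the filter on low values. Among 14 homologues of shoot meristem and flower markers, 4 were at 0 in every library, both STM homologues among them, and 1 AP3 homologue, MANES_05G153000, reached 46.4. Homologues of the woody-stem cellulose synthases summed to at most 5.68. Relative sequencing depth, recovered from the steps between low FPKM values, ran from 0.738 to 1.56 times the median library. Both FT homologues were low: 1 sequenced fragment was worth a level of 0.552 to 1.23 for MANES_13G000800 and of 0.801 to 1.79 for MANES_12G001600, depending on the library. A listed 0 may also be a failed estimate. Where the other 3 libraries of a group had a gene at a level of 10 or more, the fourth was at 0 in 0.461% of 112684 cases. No group in which an FT homologue was at 0 in a library had its other 3 libraries at 10 or more. Among genes with 1 transcript, a library at 0 was found in 6.17% of groups whose highest library lay from 10 to 20 and in 3.29% of those from 20 to 40.

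Transcripts of both FT homologues were found mainly in Bac Kan leaves. MANES_13G000800 had 228 fragments in Bac Kan leaves, in 21 of 28 libraries, and 9 fragments in Hanoi leaves, in 6 of 16 libraries. MANES_12G001600 had 89 fragments, all in 12 of the 28 Bac Kan libraries, and was at 0 in all 16 Hanoi libraries. A count of 0 allows up to 3 fragments, which in single Hanoi libraries is a level of 2.40 to 4.10 for MANES_12G001600.

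MANES_13G000800 was at 0 in all 4 Bac Kan libraries of 31 May. On 29 June its levels in Bac Kan leaves were 13.2, 6.82, 0 and 0. On 26 July they were 4.08, 15.5, 0 and 6.98. These dates thus mixed libraries with clear expression and libraries listed at 0. On 15 August the levels were 5.87, 5.40, 10.7 and 5.72, the first date with every library above 0. On 11 September they were 9.25, 16.4, 26.9 and 19.6, and the last 3 of these were the highest values of the series for this gene. The mean of that date, 18.0 ± 7.33 (SD, n = 4), stood above the mean of every other group. On 5 October the Bac Kan levels were 1.05, 5.60, 13.6 and 14.2, and on 30 October they were 9.10, 2.47, 4.28 and 7.77. In Hanoi leaves the gene was at 0 in the 4 libraries of 24 May. Later Hanoi libraries held at most 2 fragments each, and their levels lay between 0 and 1.21.

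MANES_12G001600 was first found on a later date than its homologue. The test of their difference on 29 June and 26 July could not pass (exact sign-flip p = 0.0625, or 0.0938 adjusted). Both genes were at 0 in 3 of the 8 libraries, which sign flips leave unchanged, so this p was the smallest possible. MANES_12G001600 was at 0 in all 12 Bac Kan libraries of 31 May, 29 June and 26 July. On 15 August its levels were 14.6, 1.12, 0 and 4.98, from 12, 1, 0 and 3 fragments. On 11 September they were 0, 2.65, 31.0 and 22.5, from 0, 2, 23 and 19 fragments. Libraries of a single date thus spanned most of the gene's range. On 5 October the levels were 10.6, 6.49, 1.41 and 11.0, the only date with every library above 0. On 30 October they were 9.60, 1.79, 0 and 0.

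**Figure D1:**
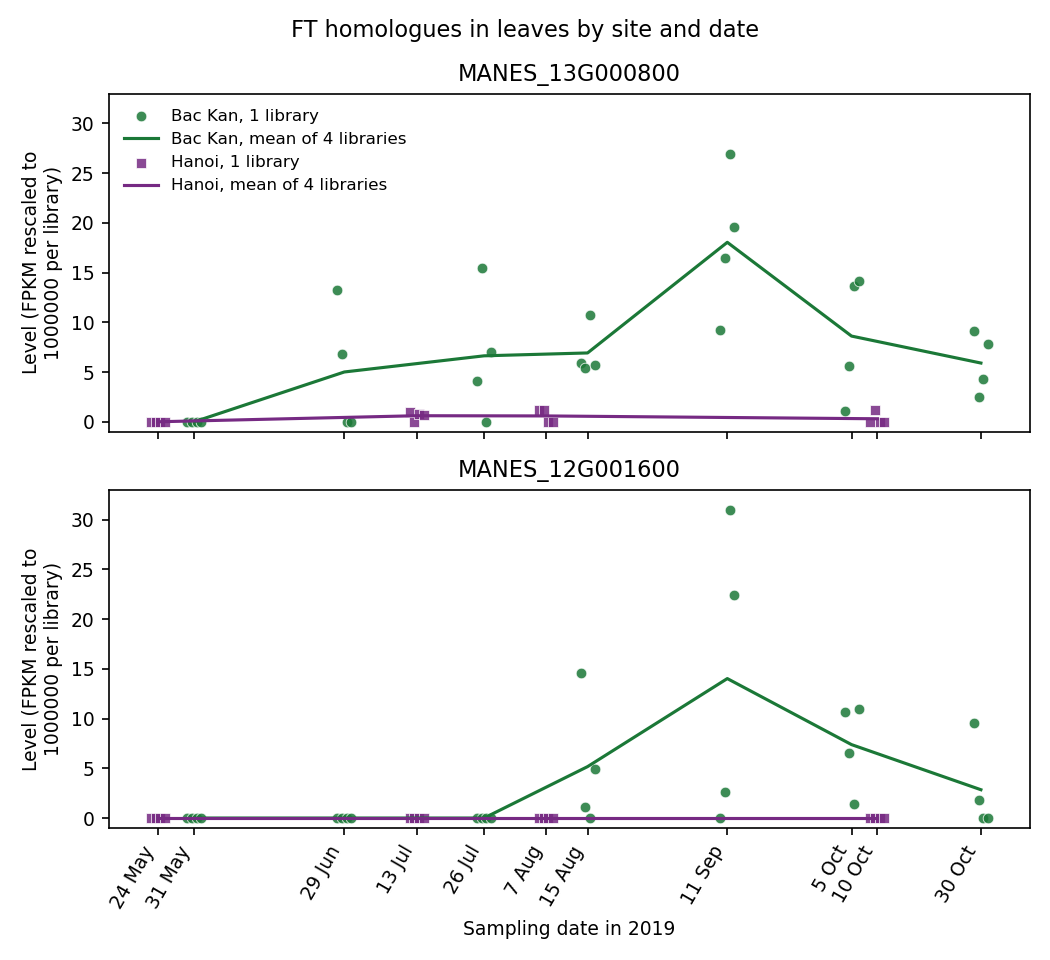
Level of each FT homologue (y axis, FPKM rescaled to 1000000 per library) by sampling date in 2019 (x axis), with 1 point per library in Bac Kan and in Hanoi leaves. Bac Kan libraries reach 26.9 for MANES_13G000800 and 31.0 for MANES_12G001600, both on 11 September, while no Hanoi library exceeds 1.21.

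On several dates single libraries differed by more than counting error. Exact 95% Poisson intervals of the fragment rates, which cover counting error only, did not overlap in 4 of the 6 library pairs of 29 June for MANES_13G000800. The same was true of 2 of 6 pairs on 5 October and of 1 of 6 on 26 July and on 11 September. For MANES_12G001600 the intervals did not overlap in 4 of 6 pairs on 11 September and in 2 of 6 on 15 August. The libraries of 15 August and 30 October could not be told apart by this measure for MANES_13G000800, nor those of 5 and 30 October for MANES_12G001600.

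**Figure D2:**
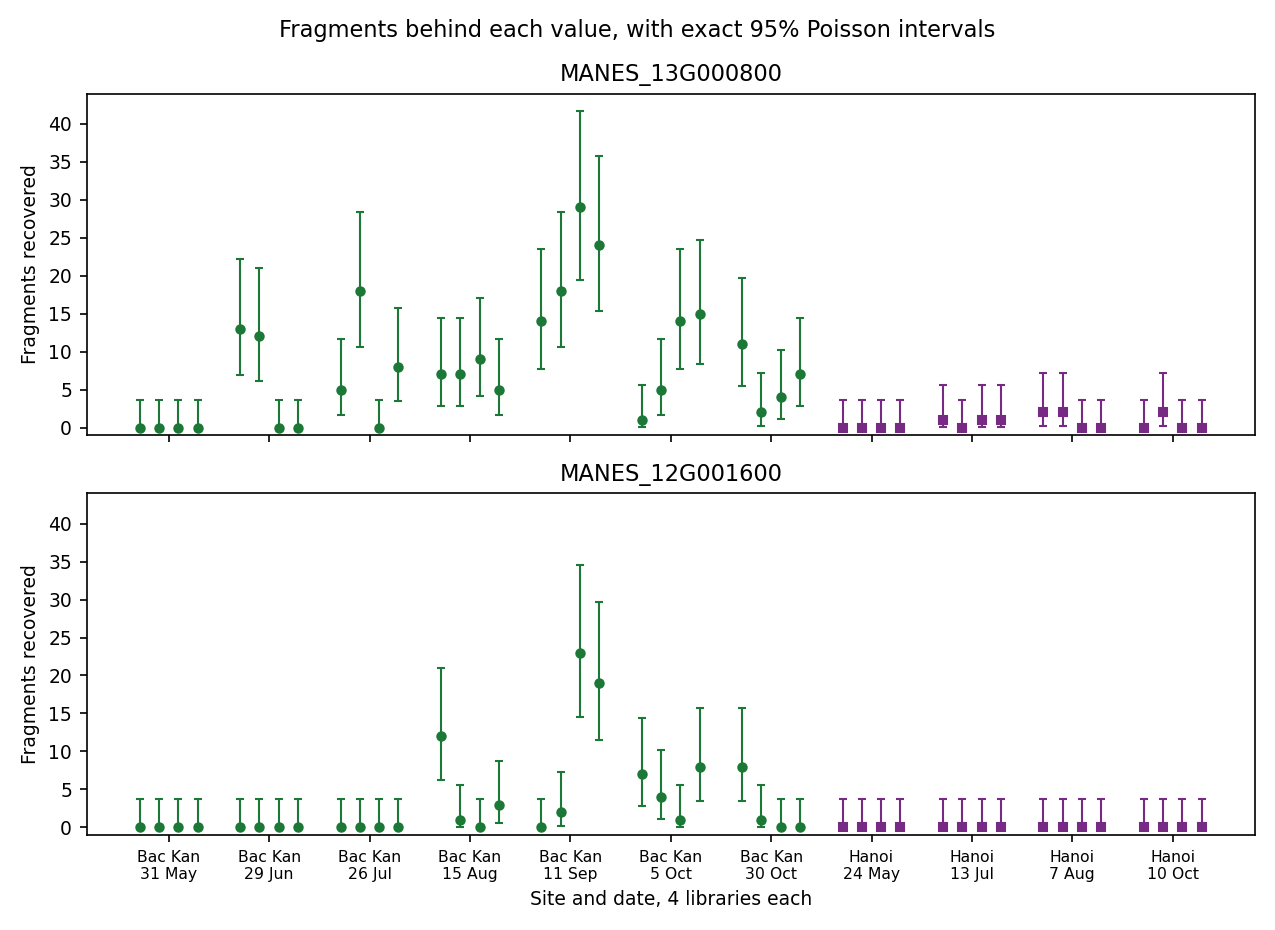
Fragments recovered for each FT homologue (y axis) in each of the 44 libraries (x axis, by site and date), with exact 95% Poisson intervals as bars. The largest numbers are 29 fragments for MANES_13G000800 and 23 for MANES_12G001600, and many intervals within a date overlap.

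The site comparison asks whether the FT homologues differ between leaves of the flowering and of the non-flowering field at similar dates. Both genes were higher in Bac Kan leaves in October, and MANES_13G000800 was also higher in August. Differences are on the log2(level + 1) scale, which understates the change of low genes, and were tested with limma over 23405 genes with Benjamini-Hochberg adjustment. For MANES_13G000800, the 15 August libraries of Bac Kan averaged 6.92 ± 2.52 and the 7 August libraries of Hanoi 0.588 ± 0.679 (SD, n = 4 each). The difference was 2.38 ± 0.67 (SE, limma adjusted p = 0.0116), and every Bac Kan library lay above every Hanoi library. In that comparison 6.4% of the genes tested were called higher, and 7.66% had no overlap in this direction. In October the gene averaged 8.61 ± 6.39 in Bac Kan leaves and 0.302 ± 0.603 in Hanoi leaves (SD, n = 4 each), a difference of 2.60 ± 0.67 (SE, limma adjusted p = 0.00329). The groups overlapped there, since 1 Bac Kan library was at 1.05 and 1 Hanoi library at 1.21. In October 10.5% of the genes tested were called higher.

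MANES_12G001600 averaged 7.38 ± 4.47 in Bac Kan leaves of 5 October and was at 0 in the 4 Hanoi libraries of 10 October. The difference was 2.82 ± 0.71 (SE, limma adjusted p = 0.00281) without overlap, a separation that 11.8% of the genes tested showed in October. In August it averaged 5.17 ± 6.63 in Bac Kan leaves (SD, n = 4) against 0 in Hanoi leaves, and the difference of 1.91 ± 0.71 did not pass the test (SE, limma adjusted p = 0.0684). Without the third Bac Kan library of 15 August, which was at 0, it was 2.54 with a limma adjusted p of 0.0160. Dropping a 0 from the higher group can only raise the difference. Over all fits that left out 1 library it ran from 1.22 to 2.54 (limma adjusted p = 0.0160 to 0.322).

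Earlier in the season no difference passed. For MANES_13G000800 on 26 July against 13 July in Hanoi it was 1.70 ± 0.67 (SE, limma adjusted p = 0.110). Without the third library of 26 July, at 0, it was 2.49 with a limma adjusted p of 0.0140. Here too, dropping a 0 from the higher group can only raise the difference. Over all fits that left out 1 library it ran from 1.14 to 2.49 (limma adjusted p = 0.0140 to 0.386). On 29 June, set against the same Hanoi libraries, the difference was 1.06 ± 0.67 (SE, limma adjusted p = 0.338). Of the genes tested, 5.17% were called higher in the July comparison and 11.1% in that of 29 June. In late May both genes were at 0 at both sites, and MANES_12G001600 was at 0 in every library of the June and July comparisons.

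Averaged over the late May, July, August and October pairs, the difference was 1.67 ± 0.33 for MANES_13G000800 (SE, limma adjusted p = 0.000187). It was 1.18 ± 0.36 for MANES_12G001600 (SE, limma adjusted p = 0.0120). For this average 12.5% of the genes tested were called higher. A fit with the 11 date means as samples took another difference, all 7 Bac Kan dates minus all 4 Hanoi dates, without pairing. It did not pass, at 2.01 for MANES_13G000800 (limma adjusted p = 0.214) and 1.26 for MANES_12G001600 (limma adjusted p = 0.452). Whether the site difference changed between the 4 pairs was tested directly. For MANES_12G001600 it did (limma F test, adjusted p = 0.0421), but the call was lost when any 1 of 25 of the 44 libraries was left out, with adjusted p from 0.0138 to 0.0810. For MANES_13G000800 it did not pass (adjusted p = 0.0863), and without the first library of 5 October or the third of 26 July it did (adjusted p = 0.0287 and 0.0334). Each was the lowest Bac Kan library of its date, so dropping it can only raise the difference of its pair. Over all 44 omissions the adjusted p for MANES_13G000800 ran from 0.0287 to 0.127. In this test 38.1% of the genes tested were called.

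The limma spread is shared by all 11 groups, and MANES_13G000800 was at 0 throughout 2 of them and MANES_12G001600 throughout 7. An exact two-sided permutation test of 4 against 4 libraries, which uses only the pair compared, cannot go below p = 0.0286. It gave that value for MANES_13G000800 in August and for MANES_12G001600 in October, or 0.0857 after adjustment over 6 comparisons. For MANES_13G000800 in October it gave an exact p of 0.0571, or 0.114 adjusted.

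In fragments, MANES_13G000800 had 28 in the 4 Bac Kan libraries of 15 August and 4 in the Hanoi libraries of 7 August, a ratio per unit of depth of 9.36. The 95% exact conditional interval of that ratio was 3.28 to 36.7. In October it had 35 in Bac Kan leaves and 2 in Hanoi leaves, a ratio of 28.2 (interval 7.25 to 242), although the Hanoi libraries of that date were the deepest, at 1.30 to 1.56 against 0.793 to 0.939 in Bac Kan. MANES_12G001600 had 16 fragments in Bac Kan leaves of August and 20 of October and none in Hanoi leaves. Set against a floor of 3 fragments over the 4 Hanoi libraries, its rate was 7.13-fold and 10.8-fold higher. These ratios take the Bac Kan fragments as exact and are not lower limits. The intervals and ratios leave out the spread between libraries.

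Phloem markers moved with the site in the same months. Their summed level over 16 homologues, of which the 3 of the sugar exporter SWEET12 were at 0 in every library, was 73.4 to 86.3 in Bac Kan leaves of August against 49.3 to 58.7 in Hanoi leaves. In October it was 42.4 to 75.2 in Bac Kan leaves against 30.5 to 37.6 in Hanoi leaves. In late May, with both FT homologues at 0, the sum was 62.3 to 99.3 in Bac Kan leaves against 119 to 183 in Hanoi leaves. Of the 12 phloem homologues tested, 5 were called higher and 0 lower in October, against 10.5% and 13.6% of all genes tested, with MANES_18G099400, a homologue of the sucrose carrier SUC2, at 1.03 (limma adjusted p = 0.000834). In August 2 were called higher and 0 lower, where 6.4% of all genes were called higher and 8.11% lower. Meristem and flower markers summed to 3.72 to 19.6 in Bac Kan leaves of October against 8.06 to 14.2 in Hanoi leaves, which overlap. Mesophyll markers summed to 4518 to 7394 in Bac Kan leaves of October against 11062 to 13949 in Hanoi leaves. The part of these markers in the FT differences was not tested, and in whole leaves fewer cells of a type and less RNA per cell cannot be told apart.

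The Bac Kan series asks when in the season the FT homologues change at the flowering site. Levels differed among the 7 dates for MANES_13G000800 (limma F test, adjusted p = 0.000178) and for MANES_12G001600 (adjusted p = 0.000408), a call that 44.8% of the genes tested received. A permutation test over the date labels of the 28 Bac Kan libraries gave p = 0.00461 for MANES_13G000800 and p = 0.0135 for MANES_12G001600. Over the 4 Hanoi dates MANES_13G000800 did not pass (limma F test, adjusted p = 0.812), where 50.4% of the genes tested did, and MANES_12G001600 was at 0 throughout.

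No step between neighbouring Bac Kan dates passed for either gene, although in date order 8.7%, 4.44%, 11.1%, 7.58%, 4.48% and 7.51% of the genes tested were called at the 6 steps. For MANES_13G000800 the step to 29 June was 1.70 (limma adjusted p = 0.117), and without either of the 29 June libraries at 0 it was 2.27 (adjusted p = 0.0373 and 0.0386). Dropping a 0 from the higher date can only raise the step. Leaving out each library in turn gave 0.99 to 2.27 (adjusted p = 0.0373 to 0.468). The step to 11 September was 1.22 (adjusted p = 0.303), and the step from there to 5 October was -1.27 (adjusted p = 0.331). For MANES_12G001600 the step to 15 August was 1.91 (limma adjusted p = 0.0794). Without the third library of that date, at 0, it was 2.54 (adjusted p = 0.0234), and dropping this 0 can only raise it. Without the first library of 11 September it was again 1.91 (adjusted p = 0.0372). That library belongs to neither date of the step, so its omission moved only the p-value. Leaving out each library in turn gave 1.22 to 2.54 (adjusted p = 0.0234 to 0.339). The step of MANES_12G001600 to 30 October was -1.60 (limma adjusted p = 0.189), or -2.33 (adjusted p = 0.0425) without the first library of 30 October. That library was the highest of the lower date, so dropping it can only enlarge the fall. Over all omissions the step ran from -2.33 to -1.20 (adjusted p = 0.0425 to 0.429).

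By mean level, the order for MANES_13G000800 was Bac Kan 11 September, 5 October, 15 August, 26 July, 30 October and 29 June, then Hanoi 13 July, 7 August and 10 October, with late May at 0 at both sites. For MANES_12G001600 it was Bac Kan 11 September, 5 October, 15 August and 30 October, and all other groups were at 0. Both genes thus had the same first 3 dates, but in both orders the libraries of every group overlapped those of the next. The phloem marker sum took another course over the Bac Kan dates. Its median was 114 on 26 July and 58.9 on 11 September, the date on which both FT homologues had their highest mean.

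The homologues were also compared with each other within libraries, since FPKM is per length. How reads that match both genes were counted is not given in the sources used here. On 29 June and 26 July MANES_12G001600 was lower in 5 of 8 Bac Kan libraries, and both genes were at 0 in the other 3. The mean difference, MANES_12G001600 minus MANES_13G000800, was -2.02 on the log2(level + 1) scale (SD 1.75, n = 8, exact sign-flip p = 0.0625). From 15 August to 30 October it was -0.96 (SD 1.77, n = 16, permutation p = 0.0481), and MANES_12G001600 was lower in 10 libraries and higher in 6. Both came to 0.0938 after adjustment over 3 comparisons, so neither passed. The test of 29 June and 26 July could not have passed. With both genes at 0 in 3 of its libraries, an exact sign-flip p of 0.0625 was the smallest possible. The change of the difference over the 4 late dates gave a permutation p of 0.717. MANES_12G001600 supplied a median of 31.8% of the summed level of both genes on 15 August, 33.7% on 11 September, 48.7% on 5 October and 21.0% on 30 October. Within 5 October alone that share ran from 9.38% to 91.0%, so that the dominant homologue differed between libraries of the same date. The summed level had its highest median, 30.5, and its highest library, 57.9, on 11 September.

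**Figure D3:**
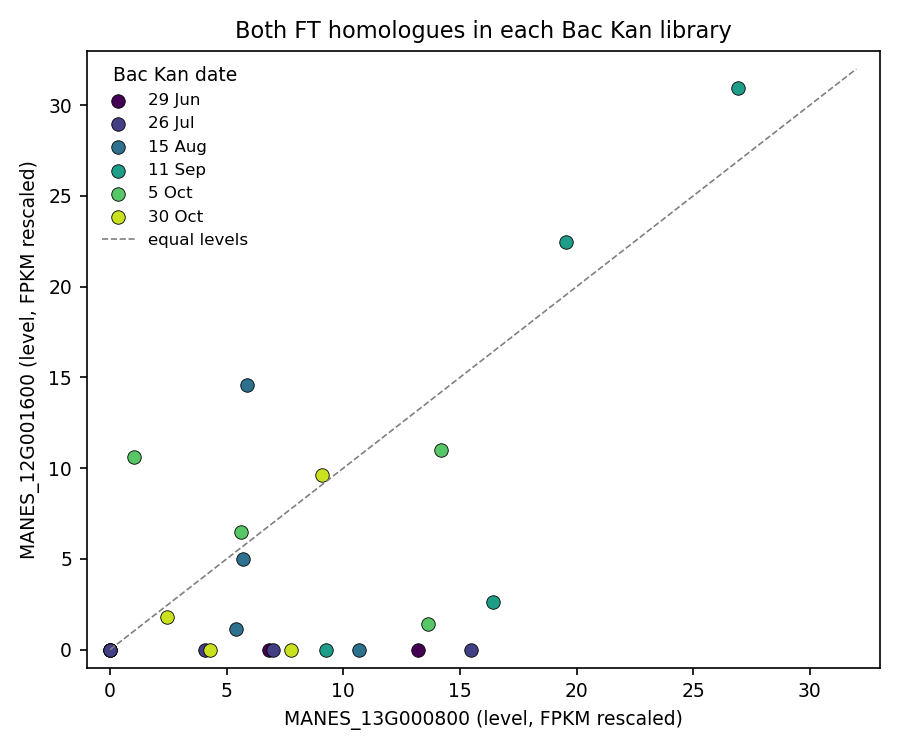
Level of MANES_12G001600 (y axis) against MANES_13G000800 (x axis), both as FPKM rescaled to 1000000, with 1 point per Bac Kan library of 29 June to 30 October, coloured by date, and a dashed line of equal levels. Libraries of 29 June and 26 July lie on the x axis or at the origin, and those of 15 August to 30 October lie on both sides of the line.

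Libraries of a date that were high in one homologue were not detectably high in the other. With date means removed, the 16 late Bac Kan libraries gave r = 0.09 (permutation p = 0.726) and rho = 0.21 (permutation p = 0.458), and r = 0.15 (permutation p = 0.644) without the 2 libraries farthest from the median of MANES_13G000800. The same was computed between each FT homologue and homologues of the flowering genes FUL and SOC1 and the phloem sum, 13 relations in all. Adjusted p ran from 0.669 to 0.859. MANES_13G000800 with the phloem sum gave r = 0.50 (permutation p = 0.257), which rested on the 2 farthest libraries, since r was 0.03 without them.

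Genes of similar course were sought by Pearson's r over the 11 group means of log2(level + 1) among 17971 genes. This is a description, because the points share libraries and MANES_12G001600 was at 0 in 7 of the 11 groups. For MANES_13G000800 the first 5 were MANES_06G137900 (r = 0.91), which has no name in the tables, and MANES_16G019200, of the octicosapeptide/Phox/Bem1p family (r = 0.90). They were followed by MANES_04G011000, a homologue of the magnesium transporter MGT10 (r = 0.89), MANES_S107600, a homologue of the phosphate starvation regulator PHR1 (r = 0.89), and MANES_03G196200, a tetratricopeptide repeat protein (r = 0.88). For MANES_12G001600 they were MANES_09G008700, of the DNA-directed RNA polymerase family (r = 0.93), MANES_08G011700, an ACT-like protein (r = 0.92), MANES_02G063800, annotated as a putative ftsH protein (r = 0.91), MANES_11G079500, without a name (r = 0.90), and again MANES_16G019200 (r = 0.89). The homologues ranked 22nd and 31st for each other, at r = 0.84. Most of these genes varied far less than FT: MANES_16G019200 averaged 14.9 to 31.0 in the Bac Kan groups and 12.3 to 17.5 in the Hanoi groups. None of the 5 for either homologue stayed among the first 5 over the 7 Bac Kan means alone.

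**Figure D4:**
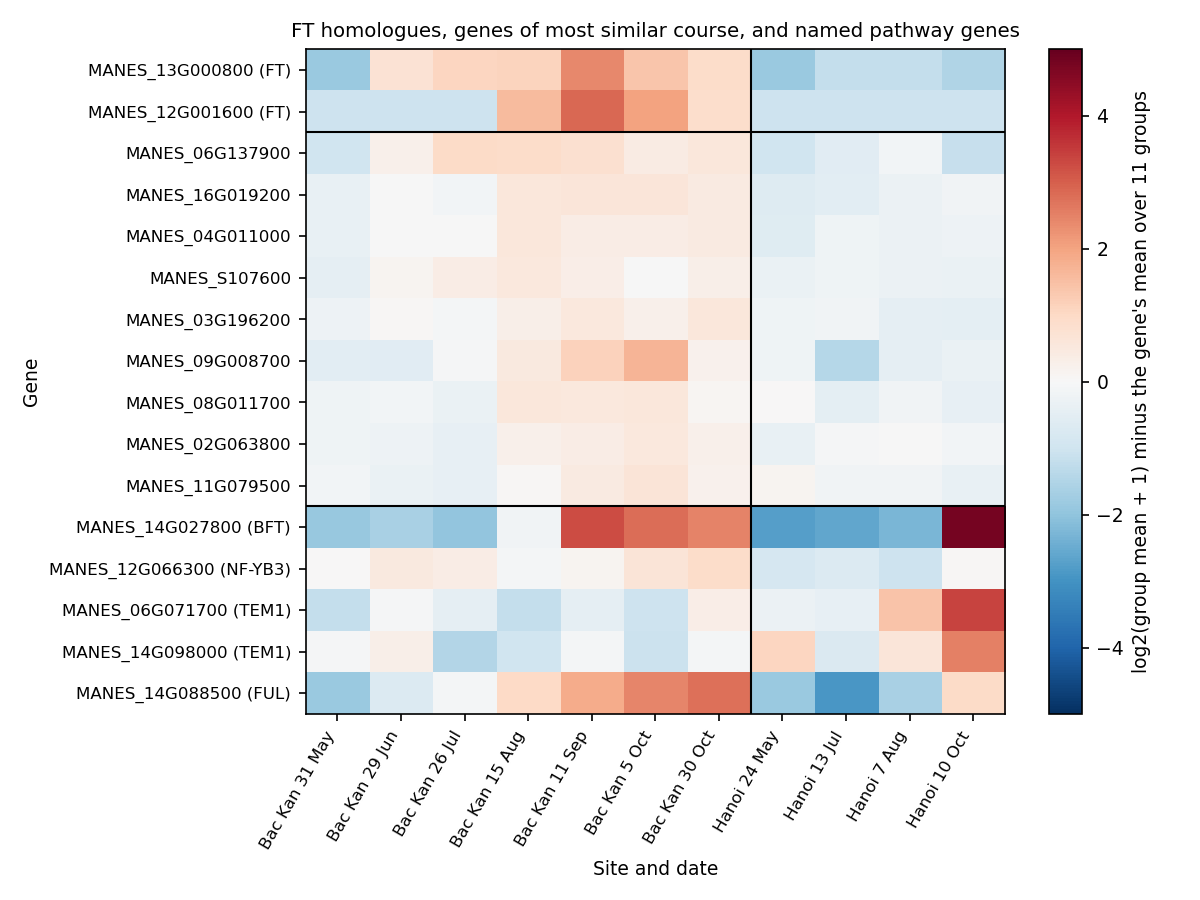
Group means of both FT homologues, the genes of most similar course and named pathway genes (rows), as log2(group mean + 1) minus the gene's mean over the 11 groups (colour), by site and date (x axis, Bac Kan left of Hanoi). Both FT rows are highest on 11 September in Bac Kan leaves, FUL is highest on 30 October in Bac Kan leaves, and BFT and both TEM1 rows are highest in Hanoi leaves of 10 October.

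The genes around FT were taken as homologues by closest Arabidopsis gene, with roles known from Arabidopsis, and were counted without the FT homologues. Of 21 tested light and photoperiod activators of FT, 4 were called higher and 6 lower in the average of the 4 pairs, for which 12.5% of all genes were called higher and 12.7% lower. Their median difference was -0.01, against 0.00 over all genes tested. MANES_12G066300, a homologue of the CCAAT-binding subunit NF-YB3, was higher in Bac Kan leaves in each of the 4 pairs. It averaged 43.4 ± 8.09 in Bac Kan leaves and 22.3 ± 1.28 in Hanoi leaves in August (SD, n = 4 each), and its average difference was 0.85 ± 0.09 (SE, limma adjusted p = 1.4e-09). Of the other tested NF-YB3 homologues, MANES_13G077500 averaged 0.90 (limma adjusted p = 0.0289) but passed in none of the 4 pairs. MANES_15G060400 went the other way, at -0.97, and did not pass (limma adjusted p = 0.0667). MANES_18G067300, a homologue of the blue-light receptor CRY1, was also higher on average, by 0.46 (limma adjusted p = 4.12e-05). In October it differed by -0.06 (limma adjusted p = 0.858). The other CRY1 homologue, MANES_02G152400, was not called on average, at 0.12 (limma adjusted p = 0.375). Both homologues of CIB1, an activator of FT that binds the related receptor CRY2, were lower, MANES_11G086600 by an average of -0.74 and MANES_04G088800 of -0.67 (limma adjusted p = 5.38e-06 and 0.000542).

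Of 25 tested repressors of FT, 3 were called higher and 5 lower on average, against 12.5% and 12.7% of all genes tested. In October 0 were called higher and 8 lower, where 10.5% of all genes were called higher and 13.6% lower. Their October median was -0.49, against -0.05 over all genes. The TEM1 homologues, named for an Arabidopsis repressor that binds FT, were the members with the lowest average differences among those named. MANES_06G071700 lay between 0 and 0.494 in Bac Kan leaves of October and averaged 23.0 ± 6.48 in Hanoi leaves (SD, n = 4), a difference of -4.41 (limma adjusted p = 5.09e-09). In August it was at 0 in the 4 Bac Kan libraries against 5.22 ± 2.19 in Hanoi leaves (SD, n = 4). MANES_14G098000 averaged 3.64 ± 1.79 in Bac Kan leaves of October and 54.0 ± 12.9 in Hanoi leaves (SD, n = 4 each), a difference of -3.62 (limma adjusted p = 1.16e-06). Over the Bac Kan dates MANES_06G071700 did not pass (limma F test, adjusted p = 0.231), and MANES_14G098000 narrowly missed (adjusted p = 0.0507). Between the June and July dates of Bac Kan, MANES_14G098000 had a step of -1.77 (limma adjusted p = 0.0387), the only one of its steps to pass. No step of MANES_06G071700 passed. Both FT homologues passed the F test, but whether their courses differ from those of the TEM1 homologues was not tested. MANES_10G099000, a homologue of the MADS-box repressor SVP, was lower in October by -1.08 (limma adjusted p = 9.35e-07) and differed by -0.03 in August (adjusted p = 0.936). MANES_12G068900, a homologue of COP1, which targets the FT activator CONSTANS for degradation, was higher on average by 0.44 (limma adjusted p = 7.4e-06).

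Of 21 tested genes for the transport of FT protein and its complex, 0 were called higher and 5 lower on average, and 0 higher and 11 lower in October. Of all genes tested, 12.5% were called higher and 12.7% lower on average, and 10.5% higher and 13.6% lower in October. The October median of the list was -0.69, against -0.05 over all genes. MANES_02G146600 and MANES_07G035100, 14-3-3 homologues named for GRF8 and GRF2, averaged -0.68 and -0.33 (limma adjusted p = 8.2e-05 and 0.00322). MANES_07G035100 was higher in Bac Kan leaves in July, by 0.82 (limma adjusted p = 0.00114), against its average. It differed by -0.71 in August and -1.20 in October. The homologues of SYP121, a syntaxin, MANES_08G034400 and MANES_09G044600, averaged -0.91 and -0.64 (limma adjusted p = 0.00624 and 0.00887).

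Of 14 tested targets downstream of FT, 2 were called higher and 4 lower on average, against 12.5% and 12.7% of all genes tested. MANES_14G088500, a homologue of the MADS-box gene FUL, averaged 45.6 ± 8.20 in Bac Kan leaves of July against 5.64 ± 8.71 in Hanoi leaves (SD, n = 4 each), a difference of 3.86 (limma adjusted p = 0.000121). In October it averaged 273 ± 18.2 in Bac Kan leaves and 96.9 ± 12.4 in Hanoi leaves (SD, n = 4 each). Every Bac Kan library, at 246 to 286, lay above every Hanoi library, at 82.3 to 108. Of the genes tested, 11.8% showed this separation in October. The difference of 1.49 ± 0.67 (SE) did not pass (limma adjusted p = 0.103), with the limma spread shared by all 11 groups. The Bac Kan mean of MANES_14G088500 was 340 on 30 October, when the FT homologues averaged 5.90 and 2.85. The squamosa promoter-binding homologues differed among themselves: MANES_13G144400 (SPL4) averaged 0.61, MANES_03G106900 (SPL5) -1.38 and MANES_17G047500 (SPL3) -1.09, all with limma adjusted p of 5.42e-07 or less. MANES_03G106900 was higher in Bac Kan leaves in October, by 1.56 (limma adjusted p = 0.000871), against its average.

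Of the 8 other members of the FT and TFL1 family, MANES_14G027800, a homologue of BFT, was the only one to pass the filter. It averaged 4.93 ± 5.42 in Bac Kan leaves of August and 0.397 ± 0.279 in Hanoi leaves (SD, n = 4 each), a difference of 1.57 (limma adjusted p = 0.0161). In October it averaged 45.7 ± 8.25 in Bac Kan leaves and 183 ± 54.0 in Hanoi leaves (SD, n = 4 each), a difference of -1.95 (limma adjusted p = 0.00155). The FT homologues differed the other way in October. In Bac Kan leaves the BFT homologue had its highest mean, 63.4 ± 6.31, on 11 September, the same date as both FT homologues. The 3 TFL1 homologues were at 0 in every library.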

How the data were processed

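FPKM values of 41491 transcripts in 44 leaf libraries were deposited by the authors, 1 table per site and date. TopHat2 was used, per the submitters' processing notes; the quantifier, genome build and filters are not given in the sources used here. Libraries were amplified by 14 cycles of PCR, per the labels' protocols. FPKM was summed over the transcripts of a gene (1 for each FT homologue). Deposited FPKM summed to 664145 to 804362 per library and was rescaled to 1000000.

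The 23405 genes that reached a level of 1 in 4 or more libraries were tested on log2(level + 1) with limma 3.58.1 (R 4.3.3, variance trend, all 11 groups in 1 fit), calls at adjusted p under 0.05. A check on simulated data used normally distributed noise and planted changes only in genes of higher average level than the FT homologues. It therefore does not show how changes of such low genes, with many zeros, are called. Permutation tests used SciPy 1.17.1 and 100000 resamples where not exact. FPKM of low genes falls on whole multiples of a step, which gave relative depth and fragments: 92.2% of 58029 low values and all 39 FT values above 0 came within 0.05 of a whole number, taking the smallest step as 1 fragment. Absolute depth is unknown, and intervals cover counting error only. Library numbers are column places. In the table of 30 October, 1 extra column equal to one of 5 October was not used.

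The members, lists and tests were chosen with earlier results of these data known. Pathway genes named are at most 4 called per list by smallest p of the average difference, and the 5 most alike by r for each FT homologue. The other CRY1 homologue and the other tested NF-YB3 homologues were added beside the ones so named. Single values named among the phloem and flower markers were chosen after they were seen. Alternatives were other pseudocounts, scalings, filters, transcripts and variances, and leaving out each library. Sequences and coordinates of the FT homologues were not used here.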

Additional observations from a re-analysis of the deposited data

Results flagged for a closer look

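In Bac Kan leaves of 15 August, 1 library had MANES_13G000800 at 10.69 while the other 3 lay between 5.40 and 5.87, so that it stood apart from its group. It held 9 fragments against 5 to 7 in the others, and the exact 95% Poisson intervals of all 4 overlapped. In Hanoi leaves of 10 October, 1 library had the gene at 1.206, from 2 fragments, while the other 3 were at 0. These are 2 of 13 combinations of gene, site and date examined. Chance marks about 1 in 20 groups of continuous values, a rate that does not hold for groups with several zeros: with 3 libraries at 0, any fragment in the fourth sets it apart.

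The difference of Bac Kan minus Hanoi leaves for MANES_12G001600 changed over the 4 pairs of dates (limma F test, adjusted p = 0.0421). It was 2.82 in October and 1.91 in August, and every library was at 0 in July and late May.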

How the results depend on the processing

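The calls for MANES_13G000800 in August, in October, in the average of the pairs and over the Bac Kan dates, and for MANES_12G001600 in October, in the average and over the Bac Kan dates, held in all 44 fits that left out 1 library. With a pseudocount of 0.1, MANES_12G001600 passed in August (4.12, limma adjusted p = 0.0236) and at the step to 15 August (4.12, adjusted p = 0.0291), its step to 5 October was 0.66 in place of -0.03, and 6 in place of 10 activators were called. Its change of site difference gave adjusted p = 0.0564 on FPKM as deposited, 0.0527 without the filter and 0.139 with a pseudocount of 5, while that of MANES_13G000800 gave 0.0444 in a fit of only the groups compared. With date means as samples, all 7 Bac Kan dates were set against all 4 Hanoi dates without pairing, which is not the average of the pairs. That difference was 1.26 (limma adjusted p = 0.452) for MANES_12G001600 and 2.01 (adjusted p = 0.214) for MANES_13G000800. The exact permutation test of MANES_13G000800 in October (2.60) gave p = 0.0571. The late difference between the homologues was -0.44 with a pseudocount of 5 (unadjusted permutation p = 0.0746). The r of the fifth most alike gene over the 7 Bac Kan means was 0.970 for MANES_12G001600 and 0.956 for MANES_13G000800, against 0.894 and 0.884. The cause of these changes was not tested.

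Leaving out 1 library gave these ranges. For MANES_12G001600 they were 1.22 to 2.54 in August and at the step to 15 August, -0.98 to 0.69 at the step to 5 October and -2.33 to -1.20 at the step to 30 October. The adjusted p of its change of site difference ran from 0.0138 to 0.0810. For MANES_13G000800 they were 1.14 to 2.49 in July, 0.99 to 2.27 at the step to 29 June, -0.19 to 1.16 at the step to 15 August and -0.84 to 0.12 at the step to 30 October, and the adjusted p of its change of site difference ran from 0.0287 to 0.127. The late difference between the homologues ran from -1.19 to -0.79, with unadjusted permutation p above 0.05 in 10 of 16 cases. Median-ratio scaling moved the median of all genes by -0.01. No paired analysis was possible because the columns carry no replicate number. At 1 to 29 fragments per value, single levels of the FT homologues are imprecise.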
